A study of Homo sapiens with 3 samples.

Results

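NEAT1 and MALAT1 are abundant long noncoding RNAs that stay in the nucleus, and they are transcribed from neighbouring genes on the plus strand of chromosome 11. Their m6A regions were taken from a single deposited list for nuclear RNA of the breast cancer cell line MDA-MB-231. The members were chosen by position: a region on either strand belonged to NEAT1 if its midpoint fell between 65190 and 65213.1 kb of chromosome 11 in hg19, and to MALAT1 if it fell between 65265 and 65274 kb. The rule found 34 regions in NEAT1 and 17 in MALAT1, 51 of the 41836 regions in the list. The genes themselves were picked with the list known, so the number of regions they hold is given as a description and no test was made.

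RNA of lysed nuclei was bound with rabbit anti-m6A (2 libraries) or rabbit IgG (1 library), and the labels name no treatment. The labels do not say whether the m6A libraries came from separate cultures. The list holds 0 columns of values for a single library and a score of 1 for every region. The level of m6A over IgG, the read depth behind a region and the spread between libraries are therefore unknown here, and the measurements are start, end and strand. No value below has a replicate error.

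The m6A mark, a methyl group on the N6 position of adenosine, is written into RNA by the METTL3 and METTL14 complex, mostly within the DRACH motif, in which D is A, G or T, R is A or G, and H is A, C or T. NEAT1 is made as a short isoform and as a long isoform that starts at the same place, and the long one is the scaffold of nuclear bodies called paraspeckles. MALAT1 gathers in nuclear speckles, where splicing factors are stored, and carries well studied m6A sites that change how the RNA folds and which proteins bind it.

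The established sites of MALAT1 show why the strand of a region matters, since the motif reads differently on the complementary strand. GGACT is the form of DRACH that is methylated most readily. In the longest MALAT1 transcript annotated (8708 nt, GENCODE release 29, GRCh38, plus strand of chromosome 11) GGACT occurs 13 times on the sense strand and 4 times on the antisense strand. No 100-nt stretch of the sense strand had more than 2 GGACT matches, and whether several reach 2 was not recorded. The first from the 5′ end, centred on its matches, is printed here, 5′ to 3′, with GGACT in capitals. It holds bases 2496 to 2595 of the transcript.
MALAT1 sense: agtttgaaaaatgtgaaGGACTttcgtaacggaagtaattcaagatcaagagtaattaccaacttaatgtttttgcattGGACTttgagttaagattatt

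The adenosines of the 2 GGACT matches in the sense stretch are bases 2515 and 2577 of that transcript. Both are known m6A sites, and the second lies in a hairpin where the mark exposes a binding site for HNRNPC, a protein that packages nuclear RNA. The stretch was picked by motif alone, and its sequence is from a GRCh38 transcript, so it was not placed on the hg19 regions base by base.

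NEAT1 carried m6A regions along nearly its whole length, most of them on the strand of the gene. The 34 regions covered 4098 nt, or 17.7% of the 23.1 kb window, at 1.47 regions per kb. The plus strand held 28 of them (82.4%) and the minus strand 6 (17.6%), whereas 57.4% of all regions in the list lay on the minus strand. By bases the plus strand held more still, 3815 nt against 331 nt. The deposited strand thus matched the gene at NEAT1 in most, though not all, regions.

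MALAT1 also carried many m6A regions, but with the strands the other way round. Its 17 regions covered 2114 nt, 23.5% of the 9.0 kb window, at 1.89 regions per kb. The minus strand, opposite to the gene, held 15 of them (88.2%), beside 57.4% of all regions in the list. The plus strand held 2 (11.8%). How often the deposited strand goes against the gene over the whole list was not computed. The 15 minus-strand regions covered 1669 nt and the 2 plus-strand regions 445 nt. At MALAT1, then, the deposited strand went against the strand of the gene for all but 2 regions.

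**Figure D1:**
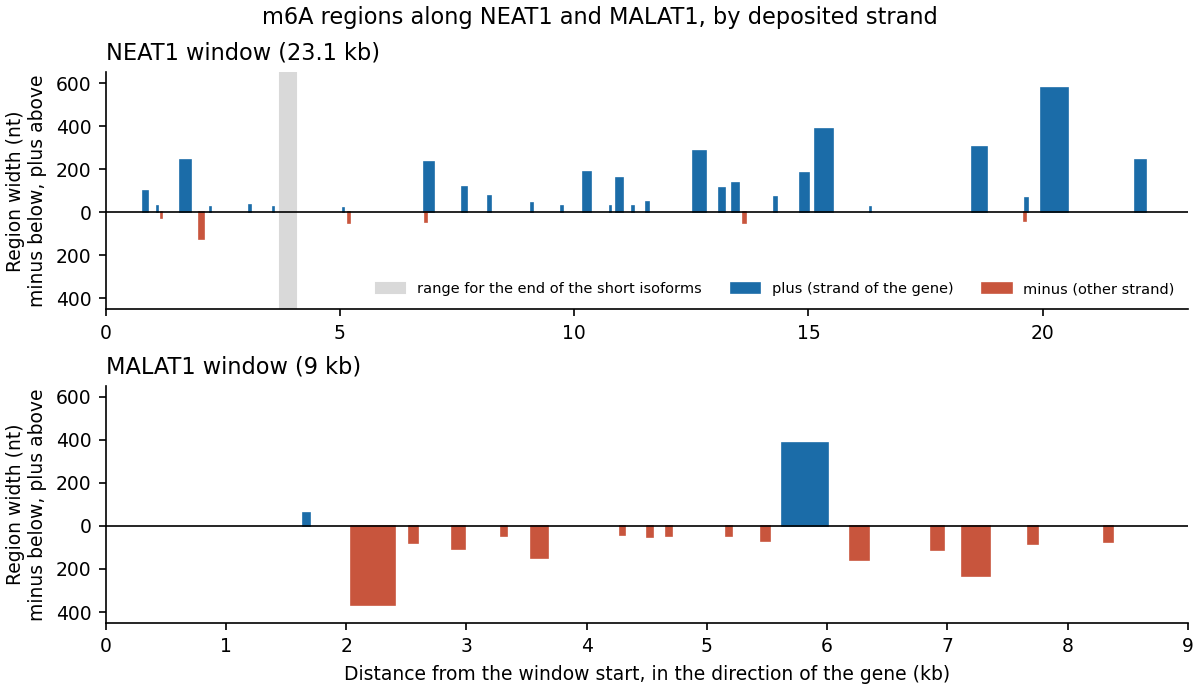
Each bar is 1 m6A region; its place on the horizontal axis is the distance from the start of the window in kb, in the direction of the gene, and its height and breadth are its width in nt, with plus-strand regions above the line and minus-strand regions below it. NEAT1 has 28 bars above and 6 below, MALAT1 has 2 above and 15 below, and the grey band marks where the short NEAT1 isoforms can end (3.72 to 4.07 kb).

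Regions of both genes had more neighbours than most of the list. A NEAT1 region had a median of 14 other regions of either strand within 5 kb (4 to 18), and a MALAT1 region had 15 (11 to 16), where the median of all regions was 1. Only 1.66% of all regions had at least 14 such neighbours and 1.23% at least 15. The interval of 51.9 kb between the windows held 0 regions. RefSeq, in GRCh38, places a transcribed pseudogene (FAUP4) and the long noncoding ENEMAL and LINC02736 between these genes. Whether these were expressed in the cells used is unknown here. The list gives no RNA level, so whether density at NEAT1 and MALAT1 follows abundance was not tested.

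Few regions lay before NEAT1, and more after MALAT1. The nearest region upstream of the first NEAT1 region lay 10.5 kb away and was the only one in the 50 kb before the window. After MALAT1, the next region lay 19.9 kb away, and the 50 kb beyond the window held 3 plus-strand and 7 minus-strand regions, 23 to 109 nt wide. Those regions were not assigned to genes, because the annotation used is in GRCh38.

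Strands were mixed at both genes more than around most regions of the list. Of the 33 NEAT1 regions with at least 5 neighbours within 5 kb, 0 had neighbours on their own strand alone, and the same was true of all 17 MALAT1 regions. Among the other regions of the list with at least 5 neighbours, 78.4% had neighbours on their own strand alone, and among the 1820 others with at least 10 neighbours 57.9% did. On average 69.7% of the neighbours of a NEAT1 region and 78.8% of those of a MALAT1 region shared its strand, against 85.0% for those 1820. The 2 plus-strand regions of MALAT1 lowered its average. They stood at 7.29%, and its 15 minus-strand regions at 88.4%, above the 85.0%. In NEAT1 the plus-strand regions stood at 82.1% and the 6 minus-strand regions at 13.7%. These shares count overlapping neighbourhoods and were not tested.

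The 6 minus-strand regions of NEAT1 were spread along the gene and mostly narrow. From the 5′ side they lay at 65191184 to 65191209 (26 nt), 65191981 to 65192104 (124 nt), 65195177 to 65195224 (48 nt), 65196815 to 65196857 (43 nt), 65203608 to 65203655 (48 nt) and 65209598 to 65209639 (42 nt) of chromosome 11 in hg19. Their median of 45.5 nt was close to the 45 nt of the whole list, and 1 of the 6 exceeded 100 nt. The plus-strand regions of NEAT1 had a median of 86.5 nt, and 13 of 28 exceeded 100 nt.

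Some minus-strand regions of NEAT1 lay on top of plus-strand ones. The region at 65196815 to 65196857 fell wholly inside the plus-strand region at 65196785 to 65197017 and shared 43 nt with it. The region at 65209598 to 65209639 shared 5 nt with the plus-strand region at 65209635 to 65209701. That made 4 of 34 NEAT1 regions with an overlap between strands and 0 of 17 in MALAT1, where 1.14% of all regions in the list have one. Such overlaps were more frequent in dense places. Of the 1820 other regions with at least 10 neighbours within 5 kb, 156 overlapped a region on the other strand. The difference between NEAT1 and this denser set was not tested. Within the 43 shared bases a plus-strand and a minus-strand call stand for the same stretch of the genome.

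The 2 plus-strand regions of MALAT1 were unlike each other. The first region of the gene, at 65266639 to 65266699 (61 nt), was on the plus strand and began 1.64 kb into the window. The other, at 65270628 to 65271011, was with 384 nt the widest of the 17. It overlapped no minus-strand region but filled a gap between neighbours at 65270452 to 65270523 and 65271188 to 65271345, at distances of 104 and 176 nt. The deposited strand therefore changed at the first region of MALAT1 and again around its widest one.

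RefSeq also lists an antisense gene at MALAT1, TALAM1 (8121 nt), which covers 82.1% of the annotated MALAT1 gene on the opposite strand. TALAM1 RNA is known to be transcribed from the 3′ side of MALAT1 and to be scarcer than MALAT1. Regions from an antisense RNA and regions of MALAT1 given the opposite strand cannot be told apart in the list, and how the strand was assigned is not given in the sources used here.

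Along NEAT1 the median width of the regions was larger toward the 3′ end. The first region, at 65190793 to 65190891 (99 nt), began 0.79 kb into the window, and the last, at 65211972 to 65212215 (244 nt), ended at 22.2 kb. The median midpoint was at 10.5 kb, 45.5% of the window. In 3 equal segments of the window, from 5′ to 3′, NEAT1 held 13, 15 and 6 regions with median widths of 43, 74 and 155.5 nt. Coverage was 13.0% in the first segment, 22.3% in the middle and 18.0% in the last. The last segment had fewer regions and a larger median width, but its 6 regions were uneven, at 25, 304, 42, 67, 575 and 244 nt. Regions were counted by midpoint, while coverage was split at the segment ends.

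**Figure D2:**
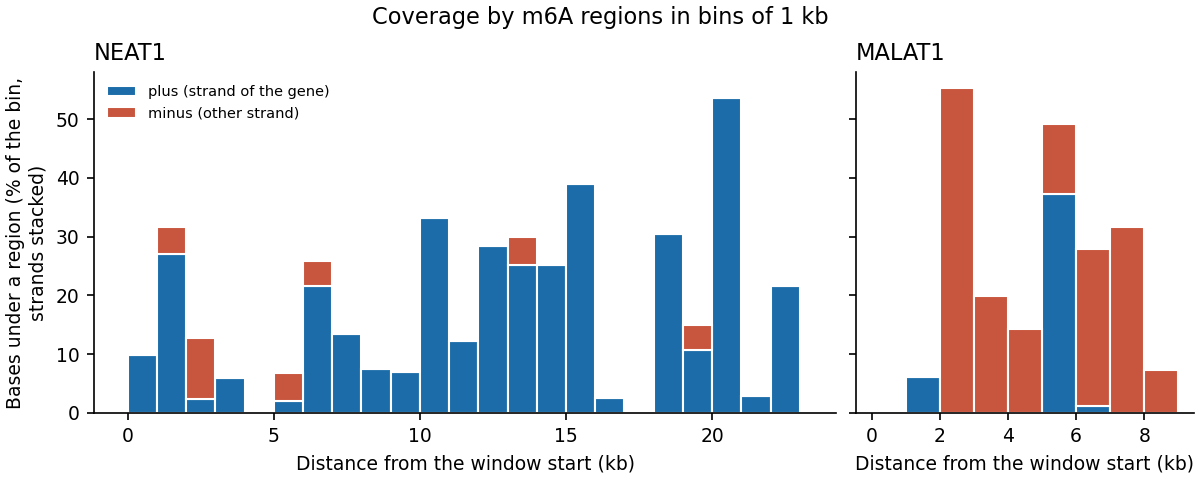
Bases under an m6A region, in percent of each bin of 1 kb from the window start, with plus-strand and minus-strand bases stacked. NEAT1 coverage peaks in the bin from 20 to 21 kb (535 nt, all plus strand), and MALAT1 coverage in the bin from 2 to 3 kb (552 nt, all minus strand).

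The 3 widest regions of NEAT1 all lay in the part that the long isoform alone contains. They were at 65209961 to 65210535 (575 nt), 65205145 to 65205531 (387 nt) and 65208502 to 65208805 (304 nt), all on the plus strand. A further 4 plus-strand regions exceeded 200 nt, at 241, 233, 284 and 244 nt. The closest pair on one strand, at 65200756 to 65200786 and 65200888 to 65201045, was 101 nt apart, the smallest same-strand gap of the list.

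The bodies of the short and long isoforms could be compared because no region lay in the range where their border can fall. GENCODE gives the long isoform of NEAT1 a length of 22743 nt, and the farthest of the short isoforms ends 3716 nt after its start. The window is 357 nt longer than the long isoform, so with that isoform inside the window the border lies between 3.72 and 4.07 kb. The regions nearest to it ended at 3.59 kb and began at 5.06 kb, and the border therefore fell into a gap of 1475 nt wherever it lies in that range.

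The long isoform alone held most regions of NEAT1, while the shared part held more per kb. The part of the long isoform alone (19.0 kb) had 26 regions, 1.37 per kb, with a median width of 73 nt and coverage of 18.4%. The part shared with the short isoforms (3.72 kb) had 8 regions, 2.15 per kb, with a median width of 32.5 nt and coverage of 16.2%. The part of the long isoform alone thus had fewer regions per kb, a larger median width and a slightly higher coverage. Of the 14 NEAT1 regions over 100 nt, 12 lay in the part of the long isoform alone.

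On the plus strand alone the coverage difference was larger, 17.7% in the part of the long isoform alone and 12.2% in the shared part. The shared part had 2 of its 8 regions on the minus strand, and the part of the long isoform alone 4 of 26. Reads from the shared part can come from either isoform, so its regions cannot be credited to one of them. The longest stretch of NEAT1 without a region ran for 2161 nt, from 16.3 to 18.5 kb.

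Along MALAT1 the regions left the 5′ end free and then followed each other closely. The first 1.64 kb of the window held 0 regions, of which at most 292 nt can lie outside the 8708-nt transcript if that transcript is inside the window. The last region, at 65273302 to 65273374 (73 nt), ended at 8.37 kb. The median midpoint was at 4.68 kb, 52.0% of the window. In 3 equal segments, MALAT1 held 4, 8 and 5 regions and coverage of 20.4%, 27.8% and 22.3%, so no segment was free of regions.

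After the 384-nt plus-strand region, the widest regions of MALAT1 were on the minus strand, at 65267040 to 65267404 (365 nt) and 65272125 to 65272358 (234 nt). The closest neighbours were 104 nt apart, once between 65269504 to 65269553 and 65269658 to 65269706 on the minus strand, and once between 65270452 to 65270523 and the 384-nt plus-strand region. The longest gap inside the gene was 591 nt, under the 2161 nt of NEAT1. MALAT1 regions thus formed a single run with no wide break.

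The stretch with the known sites at bases 2515 and 2577 can lie anywhere from 2.50 to 2.89 kb of the MALAT1 window. The list has 2 minus-strand regions that reach into that range, 1 from 2.52 to 2.60 kb (65267522 to 65267599, 78 nt) and 1 from 2.88 to 2.99 kb (65267880 to 65267988, 109 nt). With the transcript inside the window, both known sites lie before the start of the region at 65267880 to 65267988. Only the region at 65267522 to 65267599 can therefore cover either site. Whether it does cannot be read from the window and transcript lengths.

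Regions of both genes had a larger median width than the whole list. The list median was exceeded by 21 of 34 regions in NEAT1 and by 16 of 17 in MALAT1. The median width was 69.5 nt in NEAT1 (quartiles 32 and 176.8 nt, range 20 to 575 nt) and 78 nt in MALAT1 (50 and 149 nt, 44 to 384 nt), against 45 nt in all regions (33 and 54 nt). With same-strand regions up to 200 nt apart joined, the median stayed at 69.5 nt in NEAT1 and was 134 nt in MALAT1. Regions over 100 nt made up 14 of 34 in NEAT1 and 7 of 17 in MALAT1, 41.2% in each, where 10.3% of all regions are that wide. Over 200 nt there were 7 in NEAT1 (20.6%) and 3 in MALAT1 (17.6%), against 1.80% of all regions.

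Width also goes with density in the list, so a denser set is the closer comparison. Among the 1820 other regions with at least 10 neighbours within 5 kb, the median width was 49 nt, 21.7% exceeded 100 nt and 5.88% exceeded 200 nt. The NEAT1 and MALAT1 shares lay above these as well, though regions of a gene are not replicates and the difference was not tested. The names of the regions contain the word merged and no same-strand gap is under 101 nt, so what part of the widths stems from joining before deposit was not tested.

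**Figure D3:**
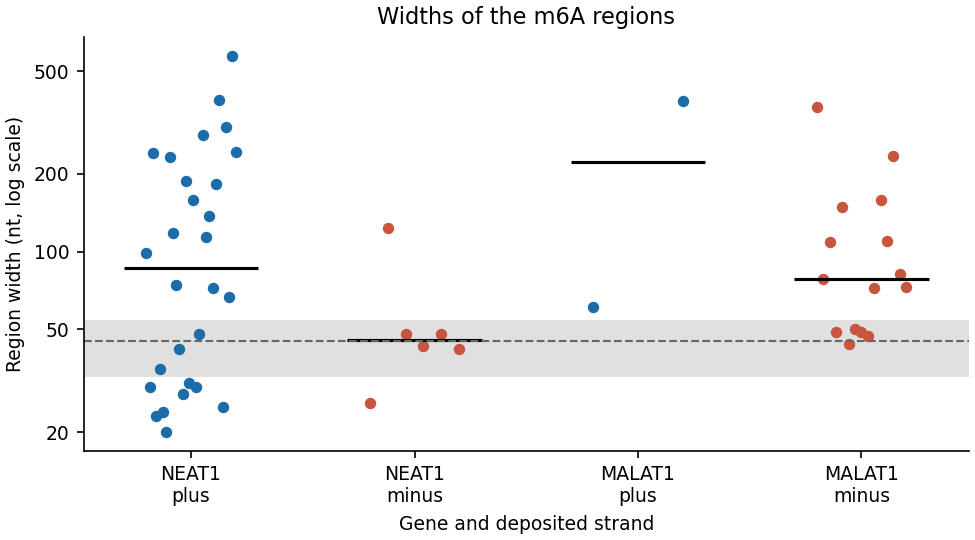
Each point is the width of 1 m6A region in nt on a log scale, by gene and deposited strand; points run from left to right in the order along the gene, black bars are medians, the dashed line is the median of all 41836 regions (45 nt) and the grey band their quartiles (33 and 54 nt). The medians of NEAT1 plus (86.5 nt) and MALAT1 minus (78 nt) lie above the band and that of NEAT1 minus (45.5 nt) inside it.

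The width most frequent in the whole list, 49 nt, was held by 0 of 34 NEAT1 regions and by 2 of 17 MALAT1 regions, both on the minus strand. In the whole list 3677 of 41836 regions had it, and 2755 of the 24007 on the minus strand. The MALAT1 count is thus near the share of the list. NEAT1 had more very narrow regions than MALAT1, with a lower quartile of 32 nt, while the narrowest MALAT1 region had 44 nt.

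DRACH was not denser on the strand that held most regions of either gene. DRACH occurred 16.0 times per kb on the sense strand of NEAT1 and 22.8 times on its antisense strand. MALAT1 had 169 matches on each strand, 19.4 per kb. Across 4123 annotated long intergenic transcripts of at least 1000 nt, the medians were 20.3 per kb (sense) and 18.3 per kb (antisense). On the sense strand 14.1% of those transcripts had a density at or below that of NEAT1 and 41.8% at or below that of MALAT1. On the antisense strand the shares were 89.0% for NEAT1 and 62.5% for MALAT1.

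**Figure D4:**
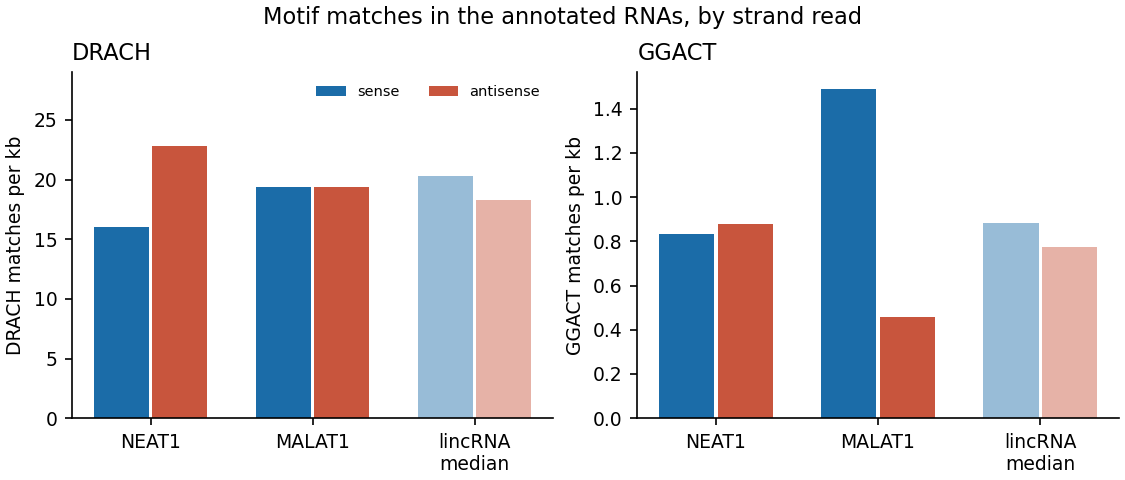
DRACH (left) and GGACT (right) matches per kb in the long NEAT1 and MALAT1 transcripts, on the sense and antisense strand, beside the medians of 4123 long intergenic transcripts in paler colours. MALAT1 has 1.49 GGACT per kb on the sense and 0.459 on the antisense strand, NEAT1 0.835 and 0.879.

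GGACT was more frequent on the sense than on the antisense strand of MALAT1, and about even in NEAT1. MALAT1 had 13 matches on the sense strand (1.49 per kb) and 4 on the antisense strand (0.459 per kb), with medians over the long intergenic transcripts of 0.882 and 0.775 per kb. At least as high a density as that of MALAT1 was reached by 25.1% of them on the sense and 70.6% on the antisense strand. NEAT1 had 19 on the sense and 20 on the antisense strand. The strand of MALAT1 that is richer in GGACT is thus the one that holds 2 of its 17 regions. A motif match is not a methylated site, and the regions themselves were not searched.

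Within NEAT1, the order of the isoform parts by motif density depended on the motif. On the sense strand the part of the long isoform alone had 15.7 DRACH, 0.893 GGACT and 1.16 plus-strand regions per kb, and the shared part 18.0 DRACH, 0.538 GGACT and 1.61 plus-strand regions per kb. DRACH and regions were thus denser in the shared part, and GGACT in the part of the long isoform alone. On the antisense strand DRACH stood at 23.2 per kb in the part of the long isoform alone and 20.5 per kb in the shared part, while minus-strand regions numbered 0.210 and 0.538 per kb. With only 2 parts, nothing further can be drawn from this order.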

How the data were processed

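Per the labels' protocols, RNA of lysed nuclei was bound with anti-m6A (2 libraries) or IgG (1 library), released with the free nucleoside and made into libraries with a ScriptSeq V2 kit. Per the submitters' processing notes, reads were aligned with Bowtie2 to hg19; not given in the sources used here were the version, peak caller, thresholds, use of the IgG library, merging and how strand was assigned. The score as deposited by the authors is 1 in every region, so depth and precision per library are unknown. The authors' start, end and strand were used as they stand, counted from 1 with the end included.

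Members and lists were chosen with earlier results of these data known. The regions described singly are the 3 widest, first and last of each gene, the closest pair and all on the strand with fewer regions; coordinates of others are given where a result turns on them. Width is end minus start of the deposited record, and overlap needed 1 nt. GENCODE release 29 and RefSeq, both in GRCh38, gave names, strands, transcript lengths and motif counts. No coordinate was converted, and the motif search inside regions, which needs hg19 sequence, was not run. Motif counts in whole transcripts were added after the list was seen. Functions recovered the known members, strands and overlaps in 20 of 20 simulated lists. The tools were scipy 1.17.1 (Wilson intervals), matplotlib 3.10.9, pandas 2.3.3 and numpy 2.4.6 under Python 3.11.15.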

Additional observations from a re-analysis of the deposited data

How the results depend on the processing

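Of 65 recomputed values, 61 stayed within their limits, a 95% Wilson interval for strand shares and a factor of 1.5 for everything else, and 4 moved. Many of the 61 could not move. No region lay near a window edge, so changed window lengths and overlap rules kept the same regions. Their counts, strand shares, positions and widths were equal by construction, and the tally is no measure of robustness. Restricting NEAT1 to regions wider than the list's median left 21 of 34 regions, with a median width of 138 nt against 69.5 nt, both by construction. Counting bases in place of regions gave 92.0% plus strand in NEAT1, just above the interval of 66.5 to 91.7% around 82.4%. Joining same-strand regions up to 200 nt apart gave MALAT1 a median width of 134 nt against 78 nt, since close regions become 1, and left 12 regions there and 30 in NEAT1. The NEAT1 plus share ran from 80.0 to 92.0% and the MALAT1 minus share from 78.9 to 88.2% over the alternatives. Shortening the windows by 0.5 kb or lengthening them by 1 kb at each end changed neither count. Leaving out NEAT1 regions that overlap the other strand, an alternative chosen after seeing the data, gave 86.7% plus. A stricter score, leaving out a library and the motif search inside regions were not run, since the score is constant, values of single libraries were not in the list and no hg19 sequence was used. No paired analysis was possible because the result comes from no test. Intervals cover counting error only and treat the regions of a gene as independent, although they are not replicates. They were made for counts of regions, so for the share by bases they serve only as a yardstick.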
